A study of Mus musculus with 8 samples.

Results

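The genes described here are 10 members of the CDK inhibitor and p53 axis, in striatal cells that carried extra Bcl11b. They are the inhibitors of the Cip/Kip family (Cdkn1a, Cdkn1b and Cdkn1c), those of the INK4 family (Cdkn2a, Cdkn2b, Cdkn2c and Cdkn2d), the tumor suppressor p53 (Trp53), its ubiquitin ligase Mdm2, and the p53 target Ccng1. All probes with one of these symbols were taken, whatever their values, which gave 20 of the 25697 probes on the array and 10 of its 18120 gene symbols. At least 1 probe was detected for 9 of the 10 genes. Cdkn1a and Cdkn1c are known as Bcl11b-repressed genes, but neither had a lower estimate here after quantile normalization. Cdkn1c, at a log2 fold change of 0.23 (SE 0.26), passed no threshold. With Bcl11b, all 3 probes of Cdkn1a rose, by 1.60- to 2.70-fold, as did 2 of 3 probes of Ccng1 (1.52- and 1.44-fold) and 1 of 3 probes of Mdm2 (1.44-fold). Of these probes, only the 2 of Ccng1 passed the adjusted p limit of 0.10 (limma). The folds are those after quantile normalization. Without normalization between arrays, log2 fold changes were -0.092 and -0.15 for these Ccng1 probes and 0.017 for the Mdm2 probe. Those of Cdkn1a were 0.060, 0.34 and 0.72. In that setting the median was -0.49 over all probes and -0.68 over probes detected on at least 1 array. The single Trp53 probe had a log2 fold change of 0.16 (SE 0.19) after quantile normalization and passed no threshold.

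Cyclin-dependent kinases (CDKs), bound to their cyclins, drive a cell through its division cycle. Cip/Kip inhibitors bind CDKs together with cyclins, whereas INK4 inhibitors bind the CDKs that partner D-type cyclins, and both restrain phosphorylation of the retinoblastoma protein. The transcription factor p53 is held low by Mdm2 and is freed from it after DNA damage and other stress, when it turns on genes such as Cdkn1a, Ccng1 and Mdm2 itself, the last closing a feedback loop.

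The cells were wild-type STHdh striatal cells, a mouse line of conditionally immortalized neuronal progenitors. As background, such lines are kept dividing by a temperature-sensitive simian virus large T antigen, a protein that binds both p53 and the retinoblastoma protein, which limits these cells as a model of the axis in striatal neurons. Of the 8 arrays, 4 held RNA of cells transiently transfected with a pcDNA3.1 plasmid carrying Bcl11b, a zinc finger transcription factor of striatal projection neurons, and 4 held RNA of cells given the empty pcDNA3.1 plasmid (mock), which the labels also call wild-type. The study's text in one place names the control as untransfected, and if it was, the effect of Bcl11b and that of transfection cannot be told apart in any fold given here. The study describes the 4 replicates of a group as different sets of transfected cells. Each array measured a whole culture, in which transfected and untransfected cells, or fewer cells with a transcript and less transcript per cell, cannot be told apart.

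The median deposited signal was 31.6 to 53.9 on the mock arrays and 20.1 to 30.2 on the Bcl11b arrays, so that the groups did not overlap before normalization, and 10121 to 10784 probes were detected on each array. The probe for Bcl11b itself was detected on none of the 8 arrays, and no array value here checks the transfection. Of the neural progenitor markers, 3 of 5 (Nes, Sox2 and Vim) were detected on all 8 arrays, while none of the 5 striatal projection neuron markers with a probe, among them Ppp1r1b and Drd2, was detected on any. By PCR, however, the study found Ppp1r1b and other striatal markers in these cells. It also called most of its striatal-enriched genes present on its arrays. Of 7 neuron markers with a probe, 2 (Map2 and Stmn2) were detected on all 8 arrays and neither passed the test described below. Astrocyte markers were detected in 1 of 4 cases, oligodendrocyte and endothelial markers in 0 of 4 each, and microglial markers in 0 of 5. Of 6 fibroblast and mesenchymal markers, 3 (Col1a1, Col3a1 and Pdgfrb) were detected and 1 passed the test below, with a fall. The summed signal of that list was 2130 to 3911 on the mock arrays and 2511 to 3490 on the Bcl11b arrays. The summed signal of the 4 endothelial markers did not overlap, at 27.0 to 42.1 on the mock arrays and 87.4 to 91.5 on the Bcl11b arrays, although none was detected on any array. Differences below detection made up this sum, with Tek at a log2 fold change of 2.92 and Pecam1 at 0.68, and the part of these lists in the results was not tested.

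The start regions of Cdkn1a, Mdm2 and Ccng1, each with a probe that rose and was detected on all 8 arrays, are shown first, because p53 and GC-box factors of the Sp1 type are known regulators of Cdkn1a. RefSeq (GRCm38.p6) gave 12 transcript starts for 9 of the 10 members, and Cdkn1c had no entry. The 250 bases before each start were searched for the p53 consensus of 20 bases, with no spacer between its 2 half-sites and at most 1 mismatch, a limit chosen after the sequences were seen. They were also searched for the GC box GGGCGG on both strands, where an overlap with another motif was allowed. The p53 consensus occurred in 25 of 32851 promoters (0.0761%), and 2 of those 25 were member starts, one of Cdkn1a and the one of Ccng1. The GC box occurred in 32.7% of all promoters and before 6 of the 12 member starts. In the lines that follow, each read 5′ to 3′ on the strand of the gene, capitals mark the p53 match in the first and last and the GC boxes in the other two.
Cdkn1a start 1, chr17:29090878-29090978, plus strand: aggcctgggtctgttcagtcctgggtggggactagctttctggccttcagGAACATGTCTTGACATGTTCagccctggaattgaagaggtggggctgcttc
Cdkn1a start 2, chr17:29093649-29093768, plus strand: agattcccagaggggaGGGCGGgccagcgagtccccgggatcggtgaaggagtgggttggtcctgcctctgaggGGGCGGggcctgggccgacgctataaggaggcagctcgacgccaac
Mdm2, chr10:117710759-117710878, minus strand: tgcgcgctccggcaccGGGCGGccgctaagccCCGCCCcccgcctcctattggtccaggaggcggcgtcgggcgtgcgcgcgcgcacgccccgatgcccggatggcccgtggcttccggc
Ccng1, chr11:40755412-40755531, minus strand: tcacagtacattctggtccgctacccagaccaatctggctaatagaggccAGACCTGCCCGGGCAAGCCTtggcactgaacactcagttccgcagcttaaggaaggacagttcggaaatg

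The Cdkn1a match lay 51 to 32 bases before the upstream of its starts, and 19 of its 20 bases fitted the consensus. The Ccng1 match lay 195 to 176 bases before the start and also fitted at 19 of 20 bases. No such match stood in the 250 bases before the single starts of Mdm2 and Trp53, which says only that these letters are not in that window. The half-site alone, with no mismatch, was common, at 7.13% of all promoters and 5 of the 12 member starts. Of the 25 genes with the full match, 7 had a probe and 4 a detected one. The detected genes that are not members, Mthfd1 and Rps27l, had log2 fold changes of 0.15 and 0.41 and did not pass the test. All these matches are descriptions of sequence, and binding was not analysed here. The study itself mapped Bcl11b binding by ChIP sequencing. It reported that a known Bcl11b response element, related to the GC box, was absent from its bound regions.

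**Figure D1:**
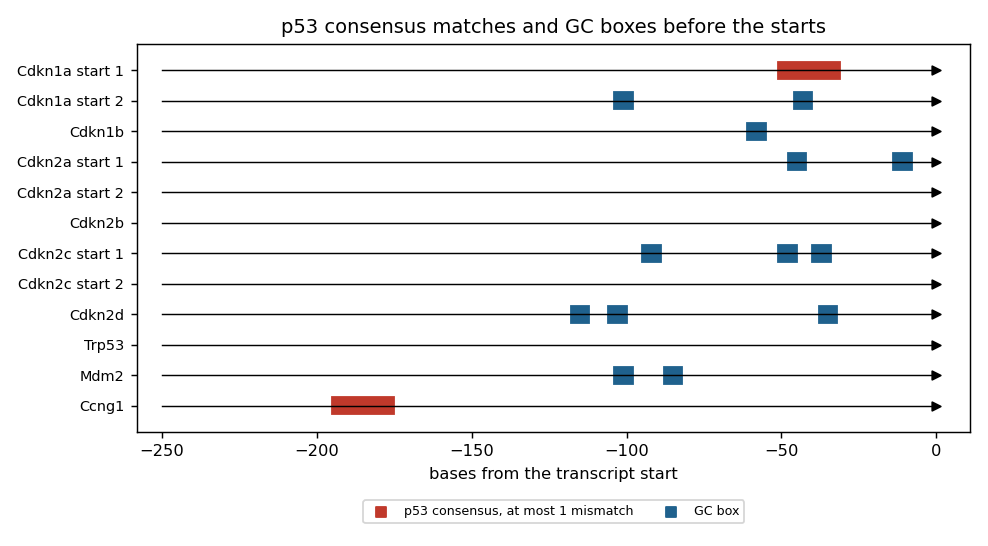
Position of the p53 consensus matches (red, at most 1 mismatch) and GC boxes (blue, either strand) in the 250 bases before each of the 12 member starts, in bases from the transcript start. The p53 match stands before start 1 of Cdkn1a and before Ccng1 only, and GC boxes stand before 6 starts.

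Signals were compared after quantile normalization on the log2 scale with limma, and a probe was called past an adjusted p of 0.10 or, by the wider threshold of the methods, past an unadjusted p of 0.05 if the log2 fold change was also 0.32 or more in size. Of the 20 member probes, 14 were detected on all 8 arrays (detection p under 0.01), 3 on some and 3 on none. The adjusted threshold was passed by 2 member probes, both of Ccng1 and both higher, where 0.981% of all probes passed it and 0.354% passed it with a rise. The wider threshold was passed by 7 member probes of 4 genes (35% of the 20), all higher, against 9.02% of all probes in either direction and 3.2% with a rise and 5.81% with a fall. A total of 11755 probes were detected on some array, and of these 14.8% passed it and 4.32% did so with a rise. Cdkn2c counts only through a probe detected on 0 of 4 mock arrays and 3 of 4 Bcl11b arrays, with a bound of 1.07-fold. Among probes detected on at least 4 arrays, 6 member probes passed with a rise, all of Cdkn1a, Ccng1 and Mdm2. Of the 10622 probes tested there, 5.45% passed with a rise. On 8 member probes (40%) every Bcl11b array lay above every mock array, which held for 2.05% of all probes, and on no member probe did every Bcl11b array lie below, as they did for 3.78% of all probes. The median log2 fold change was 0.42 over the 20 member probes, those below detection included, and 0 over all probes. Several probes can belong to 1 gene, so these shares do not count independent genes.

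**Figure D2:**
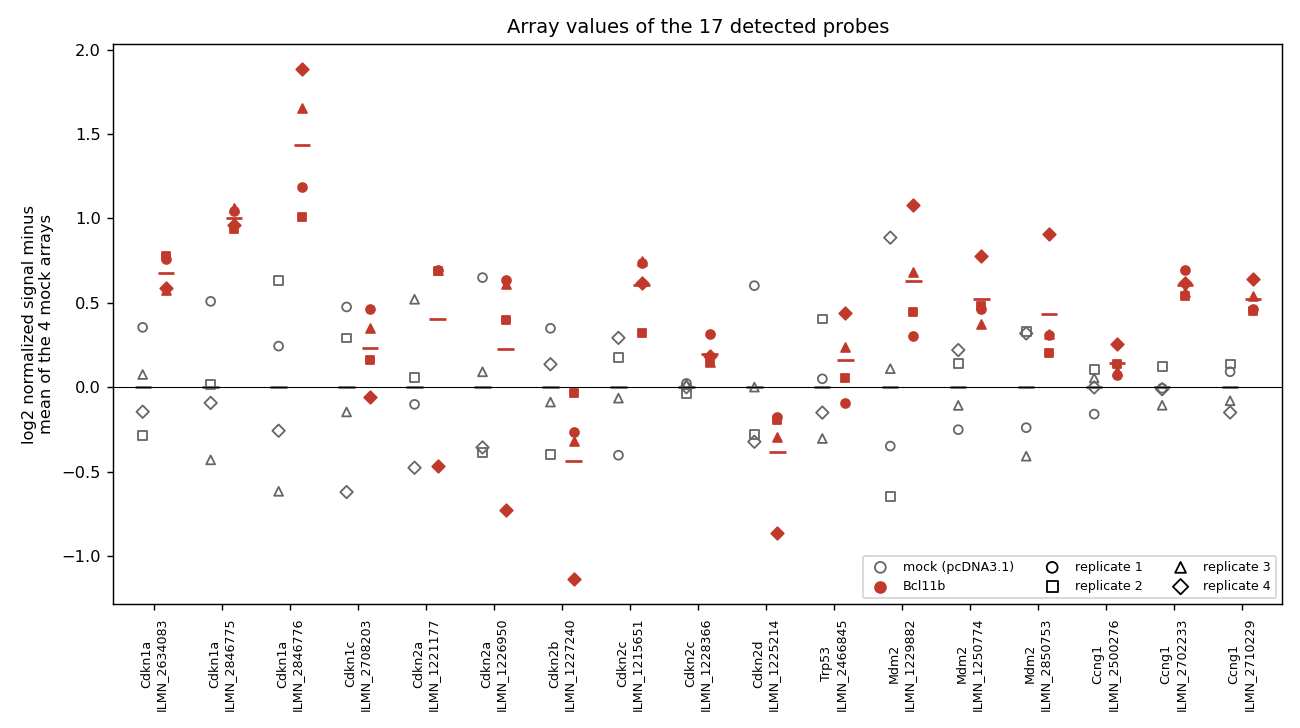
Log2 normalized signal of the 17 detected member probes on each array, less the mean of the 4 mock arrays, with mock arrays as open grey symbols, Bcl11b arrays as filled red symbols, the replicate number as the shape, and bars for group means. The Bcl11b arrays lie above all mock arrays on all 3 Cdkn1a probes, on both Cdkn2c probes, on 1 Mdm2 probe and on 2 Ccng1 probes, and Bcl11b replicate 4 (diamond) stands far from its group on several others.

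Cdkn1a encodes p21, the Cip/Kip inhibitor best known as a p53 target. Its probe ILMN_2634083 read 11.52, 10.88, 11.24 and 11.02 (log2 signal) on the 4 mock arrays and 11.93, 11.94, 11.74 and 11.75 on the 4 Bcl11b arrays. All 4 Bcl11b values were above the highest mock value. Group means were 11.17 ± 0.28 and 11.84 ± 0.11 (SD, n = 4 each), a log2 fold change of 0.67 (SE 0.15, 95% confidence interval 0.33 to 1.02), or 1.60-fold. The limma p was 0.00295 and the adjusted p 0.174.

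A second Cdkn1a probe, ILMN_2846775, read 10.70, 10.21, 9.76 and 10.10 on the mock arrays and 11.24, 11.13, 11.26 and 11.15 on the Bcl11b arrays. The Bcl11b values again lay above all mock values and were closer to each other (SD 0.062) than the mock values (SD 0.39). The log2 fold change was 1.00 (SE 0.19, 95% confidence interval 0.54 to 1.46), or 2.00-fold, with a limma p of 0.00156 and an adjusted p of 0.131. Before normalization the same probe had deposited signals of 2533, 1000.2, 1067 and 1476 on the mock arrays and 2092, 1725, 1451 and 1981 on the Bcl11b arrays, and there the groups overlapped. Mock replicate 1, the array with the highest median signal, held the highest of the 8.

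The third Cdkn1a probe, ILMN_2846776, read 8.58, 8.97, 7.72 and 8.08 on the mock arrays and 9.52, 9.34, 9.99 and 10.22 on the Bcl11b arrays. The groups did not overlap, although both spread more widely than on the other probes (SD 0.55 and 0.41). The log2 fold change was 1.43 (SE 0.33, 95% confidence interval 0.64 to 2.23), or 2.70-fold, with a limma p of 0.00422 and an adjusted p of 0.192. Thus the direction was shared by all 3 probes, while the 95% intervals of their fold changes overlapped. None passed the adjusted threshold, since the largest unadjusted p that did so among all probes was 0.000978. Leaving out mock replicate 1 brought the first and second probes to an adjusted p of 0.0991 and 0.0503 and leaving out mock replicate 2 brought the third to 0.0972, while no other left-out array did so for any of them. Without normalization between arrays, a setting under which the median of all probes stood at -0.49, the 3 probes had log2 fold changes of 0.060, 0.34 and 0.72 and none was called.

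The other Cip/Kip inhibitors gave little signal. Cdkn1b (p27) has 3 probes on the array and none was detected on any of the 8 arrays, so no fold is given. Cdkn1c (p57), an imprinted gene, had 1 probe, which was detected on 2 of 4 mock arrays and 4 of 4 Bcl11b arrays. It read 6.90, 6.72, 6.28 and 5.80 on the mock arrays and 6.89, 6.59, 6.78 and 6.37 on the Bcl11b arrays, near the dimmest detected signals of these arrays (log2 6.19 to 6.59). The groups overlapped, and the log2 fold change of 0.23 (SE 0.26, 95% confidence interval -0.40 to 0.86) did not pass the test (limma adjusted p 0.868).

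Among the INK4 inhibitors, Cdkn2c (p18) rose on its dim probe and passed neither threshold on its bright one. The bright probe, ILMN_1228366, read 9.34, 9.28, 9.34 and 9.32 on the mock arrays and 9.64, 9.47, 9.47 and 9.50 on the Bcl11b arrays. The groups did not overlap, and the spread was small (SD 0.028 and 0.080), but the change of 0.20 on the log2 scale (SE 0.041), or 1.15-fold, was under the size limit (limma p 0.0024, adjusted p 0.159). The dim probe, ILMN_1215651, was detected on 0 of 4 mock arrays and 3 of 4 Bcl11b arrays. It read 5.41, 5.99, 5.75 and 6.10 on the mock arrays and 6.55, 6.13, 6.56 and 6.43 on the Bcl11b arrays, which gives at least 1.07-fold against the dimmest detected signal of the mock arrays, averaged as log2 6.32. It passed the wider threshold (limma p 0.0127, adjusted p 0.298).

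Cdkn2a, which encodes both p16INK4a and the Mdm2 antagonist p19ARF, was bright on both of its probes. ILMN_1226950 read 12.08, 11.05, 11.53 and 11.08 on the mock arrays and 12.07, 11.83, 12.04 and 10.71 on the Bcl11b arrays, and the groups overlapped, since Bcl11b replicate 4 held the lowest of the 8 values. Its log2 fold change was 0.23 (SE 0.39, 95% confidence interval -0.71 to 1.17). ILMN_1221177 read 9.90, 10.06, 10.52 and 9.52 on the mock arrays and 10.70, 10.69, 10.69 and 9.54 on the Bcl11b arrays. The first 3 Bcl11b values were above all mock values and replicate 4 was again apart, so that the log2 fold change of 0.40 (SE 0.34, limma adjusted p 0.802) did not pass. Without Bcl11b replicate 4 it was 0.69 and passed the wider threshold, at a p of 0.0298. The files do not say which of the 2 Cdkn2a products each probe reads.

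Cdkn2b (p15) and Cdkn2d (p19INK4d) were the 2 detected genes whose estimates were negative. Cdkn2b read 9.45, 8.70, 9.01 and 9.24 on the mock arrays and 8.84, 9.07, 8.78 and 7.97 on the Bcl11b arrays, with a log2 fold change of -0.44 (SE 0.28, 95% confidence interval -1.11 to 0.23). Cdkn2d read 9.26, 8.38, 8.66 and 8.34 on the mock arrays and 8.48, 8.46, 8.37 and 7.79 on the Bcl11b arrays, with a log2 fold change of -0.38 (SE 0.26, 95% confidence interval -1.01 to 0.24). On both, the groups overlapped and replicate 4 held the lowest Bcl11b value. Neither passed (limma adjusted p 0.71 and 0.739), and both intervals include 0.

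Trp53 itself was bright and detected on all 8 arrays. Its probe ILMN_2466845 read 11.65, 12.00, 11.29 and 11.45 on the mock arrays and 11.51, 11.65, 11.83 and 12.04 on the Bcl11b arrays. The values of the groups ran through each other, with means of 11.60 ± 0.31 and 11.76 ± 0.23 (SD, n = 4 each). The log2 fold change of 0.16 had a 95% confidence interval of -0.29 to 0.61 and a limma adjusted p of 0.879. This is the transcript alone, and p53 protein, on which its activity mostly depends, was not measured on these arrays.

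Mdm2, the ligase that marks p53 for degradation, rose on 1 of its bright probes. ILMN_1250774 read 12.01, 12.40, 12.16 and 12.48 on the mock arrays and 12.73, 12.75, 12.64 and 13.04 on the Bcl11b arrays, with no overlap. The log2 fold change was 0.52 (SE 0.14, 95% confidence interval 0.20 to 0.85), or 1.44-fold, with a limma p of 0.00725 and an adjusted p of 0.234. The other bright probe, ILMN_2850753, read 12.38, 12.95, 12.21 and 12.94 on the mock arrays and 12.93, 12.82, 12.93 and 13.53 on the Bcl11b arrays. Here 2 mock arrays lay within the Bcl11b values, and the log2 fold change of 0.43 (SE 0.24, adjusted p 0.663 by limma) did not pass. The third Mdm2 probe was detected on 1 of 4 arrays in each group and passed no threshold (log2 fold change 0.63, SE 0.36). Without normalization between arrays the bright probes stood at 0.017 and -0.043, both above the median of all probes there.

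Ccng1 encodes cyclin G1, a p53 target that recruits a phosphatase to Mdm2. Its probe ILMN_2702233 read 9.73, 9.86, 9.63 and 9.73 on the mock arrays and 10.43, 10.28, 10.30 and 10.36 on the Bcl11b arrays. The groups were tight and well apart, with means of 9.74 ± 0.095 and 10.34 ± 0.067 (SD, n = 4 each). The log2 fold change was 0.60 (SE 0.056, 95% confidence interval 0.47 to 0.74), or 1.52-fold, with a limma p of 2.52e-05 and an adjusted p of 0.0196, the lowest of any member. With 1 array left out at a time it stayed at 0.0127 to 0.0801. Over 18 other settings it was below the threshold in 14, and it was 0.124 with limma-trend and robust eBayes and 0.169 with signals shifted so that the lowest was 1, a setting under which both ILMN_2846775 and ILMN_2846776 of Cdkn1a passed instead, at 0.0898 and 0.0904. Without normalization between arrays the estimate was -0.092, which is lower than 0 but above the median of all probes at -0.49.

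ILMN_2710229, also of Ccng1, read 10.41, 10.45, 10.24 and 10.17 on the mock arrays and 10.78, 10.77, 10.86 and 10.96 on the Bcl11b arrays. The groups did not overlap, and the log2 fold change was 0.53 (SE 0.078), or 1.44-fold, with a limma adjusted p of 0.0647. With 1 array left out it was 0.0492 without mock replicate 2 and above the threshold without any other array, up to 0.2, and without normalization between arrays the estimate was -0.15. The third Ccng1 probe, ILMN_2500276, read 11.13, 11.40, 11.35 and 11.29 on the mock arrays and 11.36, 11.43, 11.39 and 11.55 on the Bcl11b arrays. Its groups overlapped, and its log2 fold change of 0.14 (95% confidence interval -0.023 to 0.30) lay below the intervals of the other two, so that the 3 probes of Ccng1 did not read the same size of change.

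**Figure D3:**
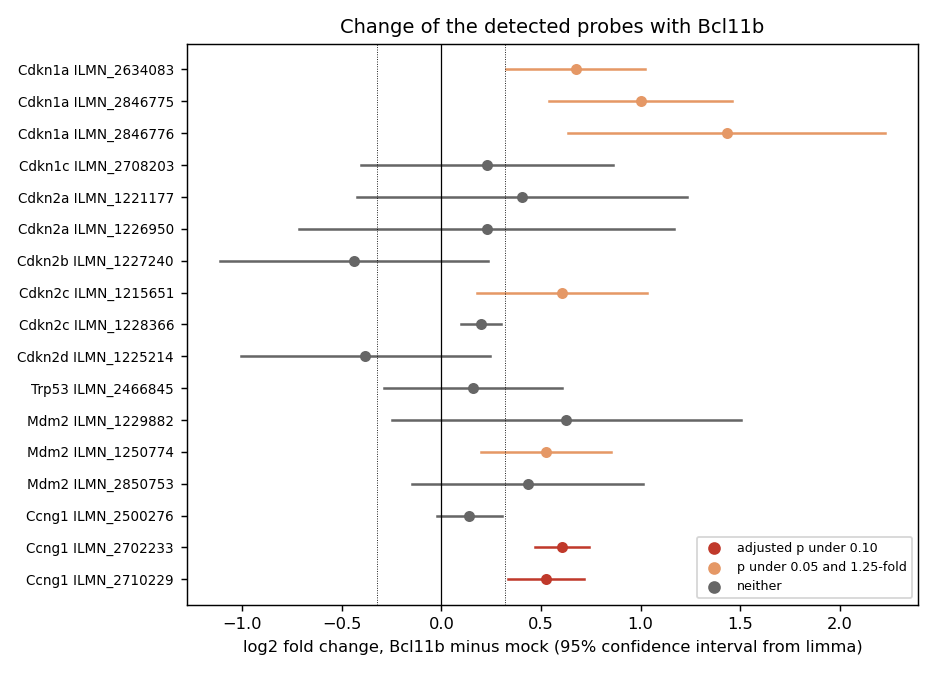
Log2 fold change (Bcl11b minus mock) of the 17 detected member probes as points with 95% confidence intervals from limma, where red marks an adjusted p under 0.10, orange the wider threshold, grey neither, and dotted lines its size limit (0.32 on the log2 scale). The 7 coloured probes belong to Cdkn1a, Cdkn2c, Mdm2 and Ccng1 and lie right of 0, and the Cdkn2c probe ILMN_1215651 is one whose mock arrays were all below detection.

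Other genes of the axis were read from lists, each gene by its brightest probe. Of 30 p53 target genes, 29 had a probe and 25 were detected, of which 5 rose, 1 fell and 19 did not pass the wider threshold. The called genes were 20.7% of the 29, where 9.79% of all gene symbols were called, each by its brightest probe (3.08% higher and 6.71% lower). Those symbols include genes below detection. The called genes were 24% of the 25 detected, where 14.8% of all probes detected on at least 1 array passed (4.32% with a rise). The list was written with earlier results of these data known. The median log2 fold change of the 29 was 0.12, and that of all gene symbols 0. The 5 that rose encode the stress protein Trp53inp1, the BH3-only protein Noxa (Pmaip1), the death receptors Fas and Tnfrsf10b, and the microtubule-associated protein Psrc1. Psrc1 is counted although it was detected on no mock array, and its bound of 1.14-fold is under the size limit of the wider threshold. Trp53inp1, Pmaip1, Fas and Tnfrsf10b act in cell death. So do others of the list that did not pass, among them Bax, Bbc3, Apaf1, Eda2r and Ei24. Their log2 fold changes were 0.84, 0.027, 0.25, 0.11 and -0.036. The gene that fell, Plk3, is a stress-responsive kinase.

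Trp53inp1 was the one target past the adjusted threshold. It read 8.22, 8.73, 8.29 and 9.10 on the mock arrays and 9.83, 9.99, 9.78 and 10.02 on the Bcl11b arrays, with no overlap. The log2 fold change was 1.32 (SE 0.21, limma adjusted p 0.0758), and a second probe of the gene, ILMN_2971479, had 1.14 (adjusted p 0.241) with no overlap either. With 1 array left out at a time the adjusted p of the first probe ranged from 0.0638 to 0.213. Pmaip1 read 7.98 to 8.61 on the mock arrays and 8.76 to 9.51 on the Bcl11b arrays, a log2 fold change of 0.80 (SE 0.22, adjusted p 0.261). Every Bcl11b value of Pmaip1 was above every mock value.

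Tnfrsf10b read 6.94, 7.99, 7.03 and 6.76 on the mock arrays and 8.09, 8.14, 8.85 and 8.30 on the Bcl11b arrays, a log2 fold change of 1.16 (SE 0.32, limma adjusted p 0.259). Its other detected probes did not show this, with log2 fold changes of -0.048, -0.070 and 0.25. Fas and Psrc1 fall outside the rule for naming genes, because they were not detected on every array, and are named after their values were seen. Fas was detected on 3 of 4 mock arrays and 4 of 4 Bcl11b arrays and read 6.89, 5.76, 6.53 and 6.32 against 8.13, 7.98, 7.91 and 7.17, a log2 fold change of 1.42 (SE 0.31, adjusted p 0.175). Psrc1, listed under an older symbol, was detected on no mock array and on 3 of 4 Bcl11b arrays, at least 1.14-fold higher. Plk3 had a log2 fold change of -0.43 (SE 0.13, adjusted p 0.311), and it did not pass after division by the array median.

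Widely studied p53 targets were also among the 19 that did not pass. The pro-apoptotic Bax had a log2 fold change of 0.84 with an SE of 0.47, and Sesn2, a stress-induced inhibitor of growth signaling, 0.79 (limma adjusted p 0.492). Gadd45a, a DNA damage response gene, stood at -0.060. Perp and Btg2 were among the genes detected on no array. For 2 of the 19, a dimmer probe passed the wider threshold. That of Gtse1, ILMN_2908065, was detected on every array (log2 fold change 0.79, SE 0.28, limma adjusted p 0.395). That of Aen, ILMN_2656453, was detected on 0 of 4 mock arrays and 2 of 4 Bcl11b arrays (0.58, SE 0.22, limma adjusted p 0.435).

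**Figure D4:**
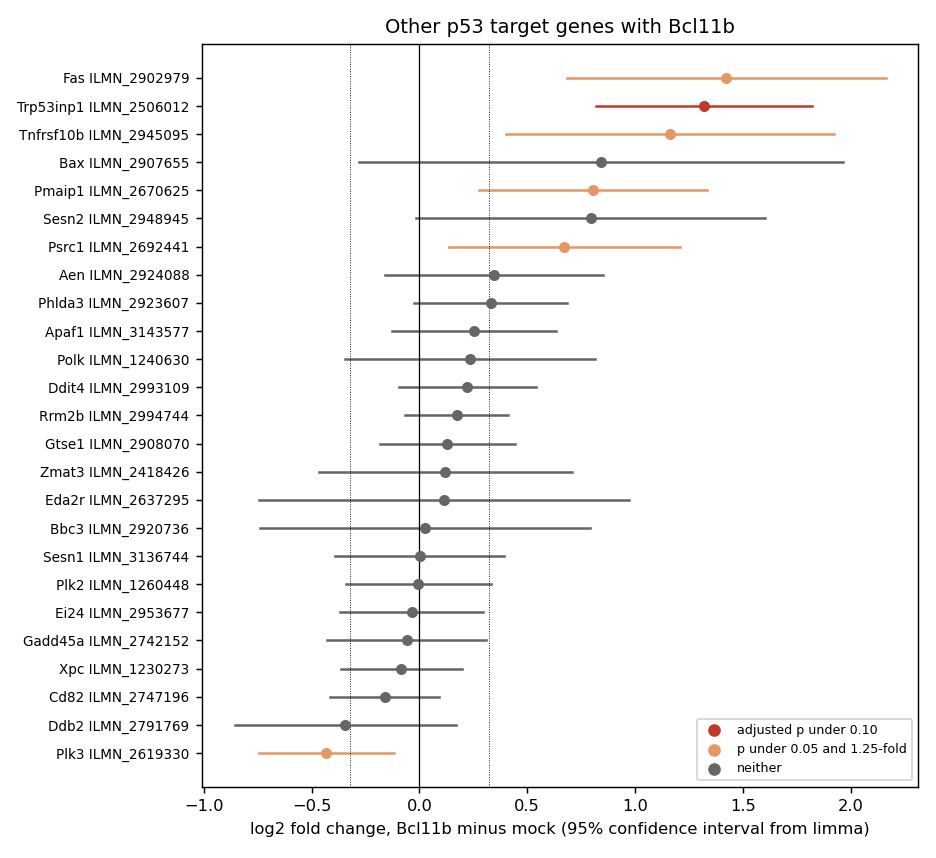
Log2 fold change (Bcl11b minus mock) of the 25 detected genes of the p53 target list, each by its brightest probe, as points with 95% confidence intervals from limma, with the colours and dotted lines marking the adjusted threshold (red), the wider threshold (orange) and its size limit (0.32 on the log2 scale). Trp53inp1 is the only red point, Fas, Tnfrsf10b, Pmaip1 and Psrc1 are orange on the right and Plk3 on the left, and Psrc1 was below detection on all mock arrays.

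Of 19 genes that act on p53, 17 had a probe and 13 were detected, with a rise in 1 and a fall in 0. This is 5.88% of the 17, a count too small to set apart from the 9.79% of all gene symbols. The one was the acetyltransferase Kat5, listed as Htatip, with 0.34 (SE 0.12, limma adjusted p 0.375), a call that was lost without mock replicate 1, Bcl11b replicate 2 or Bcl11b replicate 4 and turned to -0.36 without normalization between arrays. A dimmer probe of Rchy1, ILMN_2948987, also passed the wider threshold (log2 fold change 3.48, SE 1.18, limma adjusted p 0.373). It was detected on 0 of 4 mock arrays and 1 of 4 Bcl11b arrays. Of 26 cyclins, CDKs and members of the Rb-E2F switch, 23 had a probe and 21 were detected. None rose and 1 fell on its brightest probe (4.35% of the 23, again too few to set apart from 9.79%). That gene was Ccna2, cyclin A2 of S phase and early mitosis, which read 7.91, 7.42, 7.77 and 8.02 on the mock arrays and 7.02, 7.18, 7.56 and 6.76 on the Bcl11b arrays. Its values overlapped at 1 array of each group, and its log2 fold change was -0.65 (SE 0.21, adjusted p 0.338). A dimmer probe of Rb1, the retinoblastoma gene, also passed the wider threshold (ILMN_2679619, log2 fold change 1.06, SE 0.30, adjusted p 0.276) with every Bcl11b array above every mock array, whereas its brightest probe had 0.18 and did not pass. Cdk4, Ccnh and E2f8 were not analysed here.

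Of 22 genes for the turnover and control of CDK inhibitors, all had a probe, 18 were detected, 2 rose and 1 fell, which at 13.6% of the 22 is near the 9.79% of all gene symbols. Fbxw7, the substrate receptor of a ubiquitin ligase for cyclin E and Myc, read 9.88, 9.84, 9.89 and 9.79 on the mock arrays and 10.33, 10.44, 10.36 and 10.41 on the Bcl11b arrays. The groups were tight and apart, with a log2 fold change of 0.54 (SE 0.033), a limma p of 1.96e-06 and an adjusted p of 0.00297. Without normalization between arrays it stood at -0.16, again above the median of all probes. Ezh2, the Polycomb methyltransferase that represses the Cdkn2a locus, had 0.34 (SE 0.13, adjusted p 0.421), whereas another probe detected on all 8 arrays, ILMN_2988572, had 0.0019. The call for Ezh2 was lost under 10 of 18 other settings, among them the loss of any array but mock replicate 2, and without normalization between arrays it stood at -0.30. Cul1, the scaffold of the SCF ubiquitin ligases, had -0.46 (SE 0.15, limma adjusted p 0.36) and did not pass without Bcl11b replicate 4 or with arrays divided by their medians.

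Within the groups, the genes whose values ran most like those of Cdkn1a were not other members. After each group mean was subtracted, the brightest Cdkn1a probe had its highest Pearson r over the 8 arrays with Vdr (0.977), D15Ertd405e (0.976) and Leo1 (0.971), out of 9357 probes compared. For Trp53 they were Cd47 (0.989), Trim47 (0.988) and Trim46 (0.985), out of 9359. These are the top values of a search over all probes detected on every array, made on arrays that share their normalization, and no test is given.

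**Figure D5:**
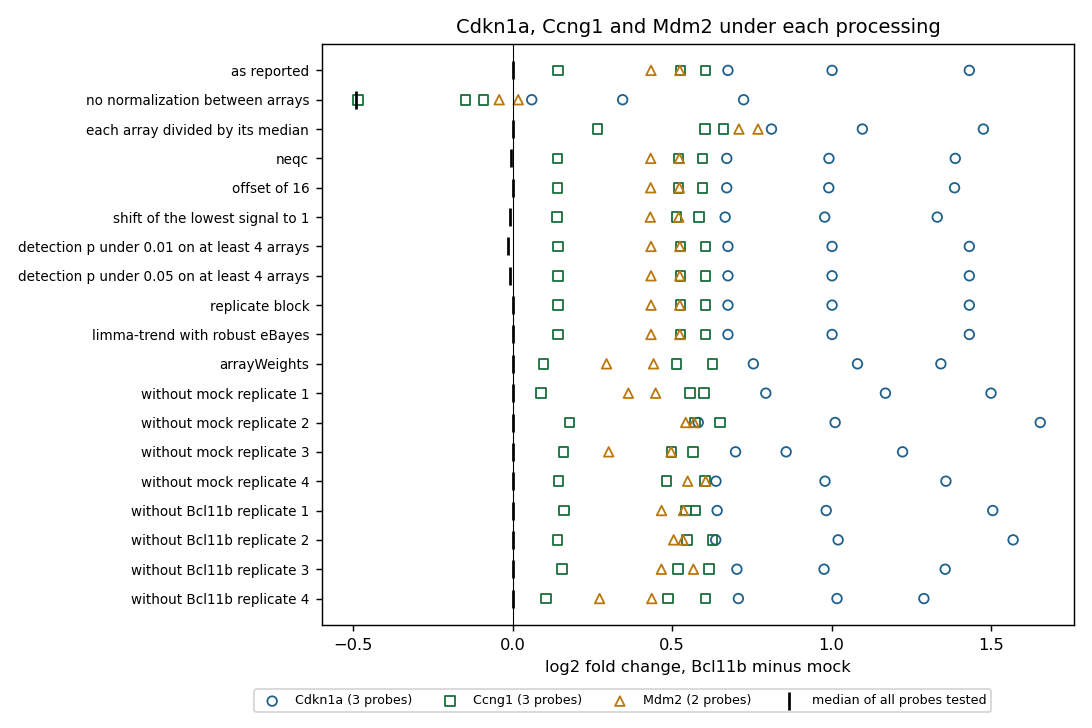
Log2 fold change (Bcl11b minus mock) of the 3 Cdkn1a probes (circles), the 3 Ccng1 probes (squares) and the 2 bright Mdm2 probes (triangles) under each processing on the vertical axis, with a black bar for the median of all probes tested. Without normalization between arrays that median is -0.49, the Ccng1 probes and 1 Mdm2 probe (-0.043) are below 0 and the Cdkn1a probes stay above it (0.060, 0.34 and 0.72), and under every other processing drawn all 8 probes are above 0.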

How the data were processed

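RNA of 8 cultures was hybridized to 8 Illumina MouseRef-8 v2 arrays, 4 per group, and the sample titles gave the groups and replicate numbers. The authors deposited for each probe an intensity, the average bead signal after background subtraction in GenomeStudio with no normalization between arrays, and a detection p-value against negative control beads. At each array 30.6 to 31.6% of intensities were at or below 0, and the number of arrays limits the precision. No 2 arrays held identical signals. The replicates were different sets of transfected cells. The limma p-values set each group difference against the spread between these sets, moderated over all probes. Anything shared by a whole group is not measured by them.

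Signals were quantile-normalized, floored at 1, set on the log2 scale and fitted with limma 3.58.1 (lmFit, eBayes) in R 4.3.3 over all 25697 probes, with Benjamini-Hochberg adjustment. The thresholds were an adjusted p of 0.10, and a p of 0.05 with at least 1.25-fold. The floor is not stated in the methods. A detection p under 0.01 counted as detected. For a probe detected on no array of a group, the fold is a bound against the mean over that group's arrays of the dimmest detected log2 signal, or of the probe's own signal if higher. The fit was tested on simulated data. The members, lists and motifs were chosen with earlier results of these data known.

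Named were all member probes. From each list (p53 targets, p53 regulators, cyclins with CDKs and Rb-E2F, turnover and control of CDK inhibitors) the text names genes past the adjusted threshold and up to 4 others per direction with the smallest p, detected on all 8 arrays and past the wider threshold, and for Cdkn1a and Trp53 the 3 genes most alike. Values of a few that did not pass were added after they were seen. Of 141 listed genes, cell type markers included, 131 had a probe. Not every listed gene is reported by name here. Promoter sequence came from RefSeq (GRCm38.p6), and probe sequences and proteins were not used here. Alternatives were other scalings, offsets, detection filters, limma settings, the replicate number as a block and each array left out.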

Additional observations from a re-analysis of the deposited data

Results flagged for a closer look

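In 32 groups of 4 arrays, those of the member probes detected in both conditions, the highest or lowest array was set against the other three by Dixon's test, which marks about 1 in 20 groups by chance. It marked 3 groups, and in all 3 the array was Bcl11b replicate 4. That array read 9.54 (log2 signal) on the Cdkn2a probe ILMN_1221177, where the other Bcl11b arrays read 10.69 to 10.70. It read 7.79 on Cdkn2d, against 8.37 to 8.48. It read 13.53 on the Mdm2 probe ILMN_2850753, against 12.82 to 12.93. The probes of Cdkn1a and Ccng1 were not among the marked ones, and their changes without this array were 0.71, 1.02 and 1.29 for Cdkn1a and 0.60 and 0.49 for the called Ccng1 probes on the log2 scale. Its median deposited signal, 30.2, was the highest of the Bcl11b arrays, and the part of the array in these values was not tested.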

How the results depend on the processing

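Of 466 values recomputed under another processing, 419 kept their direction and their side of the wider threshold, 27 fell short of it, 6 passed it newly and 14 changed direction. The adjusted threshold was less stable. Of 18 other settings, Ccng1 passed it in 14 on ILMN_2702233 and in 5 on ILMN_2710229, Trp53inp1 in 8 and Fbxw7 in 14. All 14 changes of direction arose without normalization between arrays. There the median was -0.49 over all probes and -0.68 over probes detected on at least 1 array. There the log2 fold change was -0.49 for Cdkn1c, -0.28 and -0.37 for Cdkn2a, -0.15 and -0.50 for Cdkn2c, -0.44 for Trp53, -0.13 and -0.043 for Mdm2, -0.49, -0.092 and -0.15 for Ccng1, -0.36 for Kat5, -0.16 for Fbxw7 and -0.30 for Ezh2. The count of member probes past the wider threshold was 7, and 3 without normalization between arrays, all lower. Under every other setting it was 6 to 8, all higher, and 7 to 8 with 1 array left out. The count past the adjusted threshold was 2. It was 0 without normalization between arrays, with limma-trend and robust eBayes and with the replicate block, and 4 with neqc and with arrayWeights. With 1 array left out it was 1 to 3, and it was 1 without mock replicate 3 or 4 or without Bcl11b replicate 2, 3 or 4. Of the listed pathway genes 11 passed (8 higher, 3 lower). With no normalization there were 25 (1 higher, 24 lower), with arrayWeights 18 (10 higher, 8 lower), with division by the array median 14 (13 higher, 1 lower), and with 1 array left out 9 to 17, the highest without mock replicate 2. Over all probes the adjusted threshold was passed by 252, and by 45 to 642 under the alternatives. The study listed more genes than this at the same adjusted limit, and its unadjusted cut there was a larger p. The causes were not tested.

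The replicate numbers were not taken as pairing the arrays, since same-numbered arrays deviated from their group means with r of 0.522, -0.543, 0.102 and 0.574 over 11755 probes. With the replicate block 7 member probes and 10 listed genes passed the wider threshold, and the dim Cdkn2c probe, Ccna2 and Cul1 did not. Ccng1 then had adjusted p of 0.181 and 0.302. Arrays give no counts, and signal over background limits the statements on Cdkn1b, Cdkn1c, the dim Cdkn2c probe and the dim Mdm2 probe.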
